A study of Mus musculus with 14 samples.

Results

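The complement genes described here are 9 genes of the mouse lung: the C1q chains *C1qa*, *C1qb* and *C1qc*, the central components *C3* and *C4b*, the alternative pathway genes *Cfb* (factor B) and *Cfp* (properdin), and the anaphylatoxin receptors *C3ar1* and *C5ar1*. They were taken by gene name from a table of 24270 genes, and all 9 of 9 were present, passed the filter on low values and were tested. The lungs came from C57BL/6 mice aged 6 to 8 weeks at the start. OVA KO lungs (4 libraries) were from *Mcemp1*-/- mice given chicken ovalbumin (OVA), and OVA WT lungs (4 libraries) were from *Mcemp1*+/+ mice given the same. Saline KO lungs (3 libraries) and saline WT lungs (3 libraries) were from mice of both genotypes that received saline at every injection and instillation. OVA was injected into the peritoneum on days 1, 4 and 7, and nasal instillations began 5 days after the last injection and were repeated weekly for 8 weeks. The knockout was made by CRISPR-Cas9 at exon 1 of *Mcemp1*, a mast cell membrane protein gene, and is carried by the whole animal. Airway fluid was washed out before the lungs were perfused and taken, and the replicate numbers do not say which animals share a litter, cage or day.

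Complement is a chain of plasma proteins that tags particles and releases inflammatory peptides. C1q binds antibody that has met its antigen and starts the classical pathway, in which cleaved C4 helps form an enzyme that cuts C3. In the alternative pathway factor B joins C3b to form another enzyme of this kind, which properdin stabilizes. Cutting of C3 and C5 releases the anaphylatoxins C3a and C5a, which act through *C3ar1* and *C5ar1* on myeloid cells, mast cells and other cells. The liver makes most of the circulating C3, while C1q comes mainly from macrophages and dendritic cells, and properdin from myeloid cells.

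On GRCm38 (GENCODE M21) all 9 genes lie on the minus strand. *C1qb* (chr4:136880129-136886187), *C1qc* (chr4:136889804-136893065) and *C1qa* (chr4:136895917-136898803) sit together within 18.7 kb. Chromosome 17 carries *C4b* (chr17:34728380-34743882), *Cfb* (chr17:34856374-34862518) and *C3* (chr17:57203970-57228136). *C3ar1* (chr6:122847138-122856161), *C5ar1* (chr7:16246743-16259540) and *Cfp* (chrX:20925454-20931555) stand alone. Among all stretches of 75 bases in each gene's longest transcript, 7 of the 9 genes had none that is also found in another gene. *C4b* shared 23.5% of its stretches with its near copy *C4a*, and *C4a* held 0.479% to 1.35% of the summed *C4a* and *C4b* values in the 14 libraries. *Cfb* shared 81.2% with *Gm20547* (chr17:34856412-34882042), a gene model that overlaps it, and *Gm20547* held 0.344% to 9.70% of the summed values. The division of reads within these pairs depends on how reads were assigned, so *Cfb* and, to a lesser degree, *C4b* are less certain than the other 7.

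Promoter sequence before the start annotated in RefSeq (GRCm38.p6) was found for 6 of the 9 genes, and *C1qa*, *C4b* and *Cfb* had no match. Of the matched promoters 3 are shown, because *C3* had the highest level of the 9, *C1qb* rose most among the C1q chains, and *C3ar1* was the gene that differed between genotypes after OVA. All are read 5′ to 3′ on the minus strand, from chr17:57228137-57228386 for *C3*, chr4:136886201-136886450 for *C1qb* and chr6:122856162-122856407 for *C3ar1*. Capitals mark matches to TTNNGNAA (a C/EBP motif) in *C3* and to GAGGAA (a PU.1 motif) in *C1qb*, and *C3ar1* has no capitals.
C3: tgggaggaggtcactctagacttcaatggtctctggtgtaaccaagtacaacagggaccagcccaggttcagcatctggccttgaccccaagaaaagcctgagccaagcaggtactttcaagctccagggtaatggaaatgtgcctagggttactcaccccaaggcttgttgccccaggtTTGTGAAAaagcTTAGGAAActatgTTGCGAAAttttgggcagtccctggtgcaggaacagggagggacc
C1qb: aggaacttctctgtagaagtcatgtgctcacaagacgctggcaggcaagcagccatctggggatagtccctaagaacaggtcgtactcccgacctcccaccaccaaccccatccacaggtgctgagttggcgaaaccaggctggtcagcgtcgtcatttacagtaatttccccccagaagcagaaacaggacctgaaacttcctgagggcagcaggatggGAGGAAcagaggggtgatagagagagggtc
C3ar1: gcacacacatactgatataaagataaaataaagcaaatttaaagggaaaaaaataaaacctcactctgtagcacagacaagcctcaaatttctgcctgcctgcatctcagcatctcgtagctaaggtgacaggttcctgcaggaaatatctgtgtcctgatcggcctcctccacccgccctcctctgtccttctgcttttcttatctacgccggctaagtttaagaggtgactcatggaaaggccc
Each of the 6 windows of 250 bases was searched on both strands for TTNNGNAA, GAGGAA, TTCNNNGAA (a GAS motif) and GAAANNGAA (the core of an interferon response element). *C3* held TTNNGNAA at 3 positions, from 70 to 63, 58 to 51 and 45 to 38 bases before its start, and the last of them reads as a match on both strands. The same motif was found in 3 of the 6 genes (*C3*, *C1qc* and *C5ar1*) and in 36.8% of 32851 mouse promoters, and 2.61% of those promoters held it at 3 or more positions. GAGGAA was found in *C1qb*, 30 to 25 bases before the start, and in *C1qc*, against 23.3% of all promoters. *C5ar1* held GAAANNGAA, which 7.13% of promoters hold, and none of the 6 held TTCNNNGAA, found in 7.02%. The GENCODE genes reach 151 bases (*C1qc*) and 202 bases (*C5ar1*) past the RefSeq start, into these windows. The TTNNGNAA match of *C1qc* and both motif matches of *C5ar1* therefore lie inside the GENCODE gene spans. No other matches overlap in the printed windows. A match describes the letters and is not a shown binding site.

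The deposited values are normalized read counts, and the libraries held an estimated 47.26M to 67.11M reads each. For these 9 genes a single library held between 194 and 53980 estimated reads, so that counting error is smallest for *C3* and largest for *C3ar1*. *Mcemp1* averaged 4.26 ± 0.47 in OVA KO and 14.8 ± 3.81 in OVA WT lungs (SD, n = 4 each), and 4.12 ± 0.77 in saline KO and 10.6 ± 1.20 in saline WT lungs (SD, n = 3 each). KO lungs differed from WT lungs by -1.66 on the log2 scale after OVA (limma adjusted p = 0.000172) and -1.27 after saline (limma adjusted p = 0.0124), although a value over the whole gene can check an exon 1 deletion only in part. On the first principal component of all genes (38.6% of the variance) OVA KO 1, at -35.8, lay within the OVA WT range of -44.7 to -25.5, while the other OVA KO libraries lay between -11.3 and 8.73 and the saline libraries between 24.6 and 33.3. Genotype results after OVA are therefore given with and without OVA KO 1.

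Per kilobase of exon, *C3* was the most abundant of the 9 genes in every group, with 142 ± 37.0 normalized reads per kilobase in OVA KO, 197 ± 32.7 in OVA WT (SD, n = 4 each), 109 ± 12.8 in saline KO and 82.8 ± 12.3 in saline WT lungs (SD, n = 3 each). *C4b* followed with means of 29.2 to 40.6 per kilobase across the groups, then *C1qa* (21.7 to 39.7) and *C1qb* (13.8 to 32.7). The level of *C4b* could not be separated from that of *C1qa* in OVA lungs, where *C4b* spanned 26.9 to 50.2 and *C1qa* 33.1 to 42.9 per kilobase in OVA WT. *Cfb*, *C1qc* and *Cfp* held the middle places in an order that differed between groups. *Cfb* was the highest of these in OVA KO, OVA WT and saline KO lungs and the lowest in saline WT lungs, where it had 7.56 ± 1.37 per kilobase (SD, n = 3). Both receptors came last in all groups, *C5ar1* at 4.11 to 5.63 and *C3ar1* at 1.01 to 2.35 per kilobase, and their ranges did not overlap within any group.

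**Figure D1:**
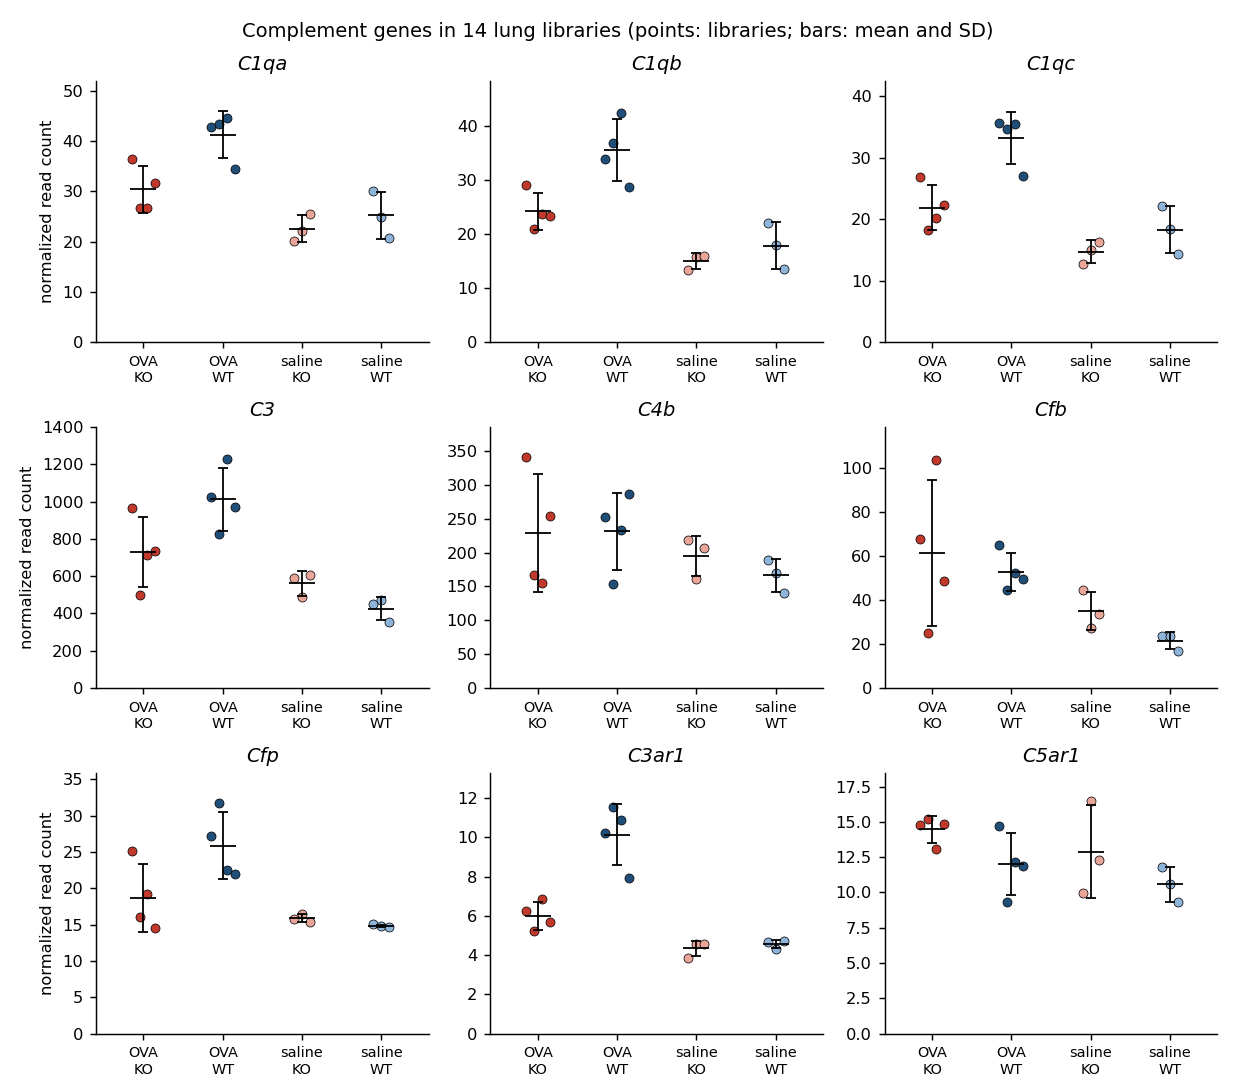
Normalized read count of each of the 9 complement genes (vertical axes, linear and starting at 0) in OVA KO, OVA WT, saline KO and saline WT lungs; points are libraries and bars the mean and SD. OVA WT points lie above all saline WT points for *C1qa*, *C1qb*, *C1qc*, *C3*, *Cfb*, *Cfp* and *C3ar1*, and only *C1qc* and *C3ar1* have all OVA KO points below all OVA WT points.

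The first comparison asks what chronic OVA exposure did to these genes in WT lungs. The C1q chains, *C3*, *Cfb*, *Cfp* and *C3ar1* rose, by 1.64-fold (*C1qa*) to 2.47-fold (*Cfb*) in group means, while *C4b* and *C5ar1* did not pass the test. In all, 7 of 9 genes were called higher and 0 lower by limma at an adjusted p under 0.05, where 4.36% of the 22828 genes tested were called higher and 7.45% lower. The same 7 had every OVA WT library above every saline WT library, as had 10.3% of all genes. Their median log2 change over all 9 was 0.86, against 0.01 over all genes. With every column scaled to the same total the same 7 genes were called higher, while over all genes 467 were called higher and 4340 lower, against 995 and 1700 as deposited, and the median of all genes moved to -0.17. Nothing in the labels shows how independent the lungs of a group are, so p-values cover the spread among these libraries alone. In whole tissue more cells of a type and more RNA per cell cannot be told apart.

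The C1q chains encode the recognition protein of the classical pathway, which is assembled from all of them. *C1qa* had 36.5, 26.7, 26.8 and 31.7 normalized reads in OVA KO lungs, against 42.7, 43.5, 44.6 and 34.5 in OVA WT lungs. Saline lungs had 20.2, 22.1 and 25.4 in KO, against 30.1, 25.0 and 20.7 in WT. All OVA WT libraries were thus above all saline lungs of either genotype, and OVA KO 1 exceeded OVA WT 4. OVA raised *C1qa* in WT lungs by 0.71 ± 0.14 on the log2 scale (SE, limma adjusted p = 0.00688).

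*C1qb* had 29.1, 20.9, 23.8 and 23.4 normalized reads in OVA KO lungs, against 34.0, 37.0, 42.6 and 28.7 in OVA WT lungs. In saline lungs it had 13.3, 15.8 and 15.9 in KO, against 22.1, 18.1 and 13.5 in WT. It rose by 0.98 ± 0.16 (SE, log2) in OVA WT over saline WT lungs (limma adjusted p = 0.00204), the largest estimate among the C1q chains. OVA KO 1 was again the highest OVA KO library, just above the lowest OVA WT library.

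*C1qc* had 26.8, 18.2, 20.2 and 22.3 normalized reads in OVA KO lungs, against 35.7, 34.7, 35.4 and 27.0 in OVA WT lungs. Saline KO lungs had 12.7, 15.1 and 16.4, and saline WT lungs 22.1, 18.4 and 14.4. Here no OVA KO library reached any OVA WT library, although OVA KO 1 and OVA WT 4 nearly met. The rise in WT lungs was 0.86 ± 0.16 (SE, log2; limma adjusted p = 0.00409).

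Within the 14 libraries the C1q chains moved closely together: after each gene was centred on its own mean, *C1qb* and *C1qc* differed by a root mean square of 0.10 on the log2 scale, *C1qa* and *C1qc* by 0.11, and *C1qa* and *C1qb* by 0.16. Their proportions differed between OVA and saline libraries. The *C1qb* to *C1qa* ratio had a median of 0.790 (0.738 to 0.888) in OVA KO and 0.842 (0.797 to 0.955) in OVA WT lungs, against 0.659 (0.626 to 0.713) in saline KO and 0.725 (0.654 to 0.735) in saline WT lungs. The groups did not overlap within either genotype, and these ratios are a description without a test.

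*C3*, the protein on which all pathways converge, showed the largest separation in reads. Its values were 966, 501, 714 and 736 in OVA KO lungs, against 1026, 824, 1230.0 and 969 in OVA WT lungs. In saline lungs they were 589, 486 and 608 in KO, against 449, 474 and 355 in WT. OVA WT lungs averaged 1012 ± 168 (SD, n = 4) and saline WT lungs 426 ± 63.1 (SD, n = 3), a 2.38-fold ratio. *C3* thus rose by 1.24 ± 0.20 (SE, log2; limma adjusted p = 0.00141). OVA KO 2 had less *C3* than saline KO 1 and saline KO 3, so the KO groups overlapped. Every saline KO library was above every saline WT library, while OVA KO 2, 3 and 4 were below every OVA WT library.

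*C4b*, the mouse C4 of the classical and lectin pathways, did not separate any pair of groups. It had 341, 166, 155 and 254 normalized reads in OVA KO lungs, against 253, 153, 233 and 286 in OVA WT lungs, and saline lungs had 218, 161 and 206 in KO, against 188, 170 and 140 in WT. The OVA groups covered nearly the same range, and OVA WT 2 and OVA KO 2 and 3 lay among the saline libraries. The log2 change with OVA was 0.45 ± 0.26 in WT lungs (SE, limma adjusted p = 0.313). The *C3* to *C4b* ratio, a description without a test, had a median of 4.67 (3.39 to 5.38) in OVA WT, against 2.53 (2.38 to 2.79) in saline WT lungs, and of 2.96 (2.84 to 4.62) in OVA KO, against 2.95 (2.71 to 3.02) in saline KO lungs.

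*Cfb*, the protease subunit of the alternative pathway enzyme, varied most between libraries. OVA KO lungs had 67.7, 25.0, 104 and 48.7 normalized reads, against 64.8, 44.6, 52.3 and 49.5 in OVA WT lungs. Saline KO lungs had 44.4, 27.2 and 33.6, and saline WT lungs 23.6, 23.6 and 16.9. The spread was widest in OVA KO lungs, where the SD was 54.2% of the mean, with OVA KO 1 and OVA KO 3 above and OVA KO 2 below every OVA WT library. *Cfb* rose in OVA WT over saline WT lungs by 1.29 ± 0.35 (SE, log2; limma adjusted p = 0.0309), the largest estimate and the largest error of the 9. This call was lost when any 1 of OVA WT 1, 3 and 4 or saline WT 1, 2 and 3 was left out, with log2 changes of 1.06 to 1.37 and limma adjusted p of 0.00288 to 0.119 over its 26 alternatives.

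*Cfp* encodes properdin, which holds the alternative pathway enzyme together. It had 25.1, 16.0, 19.2 and 14.5 normalized reads in OVA KO lungs, against 27.2, 31.8, 22.6 and 21.9 in OVA WT lungs. The saline groups were tight, with 15.8, 16.5 and 15.4 in KO, against 15.0, 14.8 and 14.7 in WT. All OVA WT libraries were above all saline lungs, whereas OVA KO 4 lay below them all. *Cfp* rose in WT lungs by 0.77 ± 0.16 (SE, log2; limma adjusted p = 0.00828).

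*C3ar1*, the receptor for C3a, had 6.23, 5.23, 6.85 and 5.66 normalized reads in OVA KO lungs, against 10.2, 11.5, 10.9 and 7.92 in OVA WT lungs. In saline lungs it had 3.88, 4.56 and 4.58 in KO, against 4.67, 4.33 and 4.72 in WT. The OVA WT, OVA KO and saline libraries thus fell into 3 ranges that did not overlap. OVA raised *C3ar1* in WT lungs 2.21-fold, by 1.05 ± 0.13 (SE, log2; limma adjusted p = 0.000386), the smallest adjusted p of the 9 genes.

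*C5ar1*, the receptor for C5a, kept a narrow range by contrast. It had 14.8, 15.2, 13.0 and 14.8 normalized reads in OVA KO lungs, against 14.7, 9.36, 12.2 and 11.9 in OVA WT lungs, and 9.96, 16.4 and 12.3 in saline KO, against 11.8, 10.6 and 9.33 in saline WT lungs. Every pair of groups compared overlapped, and the highest value of all was in a saline KO lung. The log2 change with OVA in WT lungs was 0.17 ± 0.16 (SE, limma adjusted p = 0.568). This estimate turned to -0.049 when all columns were scaled to the same total.

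In KO lungs the same OVA schedule gave smaller estimates for 8 of the 9 genes. None of the 9 was called by limma, where 0.21% of the 22828 genes were called higher, although all 9 log2 changes were above 0, with a median of 0.42. At an unadjusted p under 0.05, 4 genes passed (*C1qa*, *C1qb*, *C1qc* and *C3ar1*), against 11.3% of all genes. In these 4 every OVA KO library was above every saline KO library, as was the case for 5.75% of all genes. *C1qb* had the largest estimate, 0.67 ± 0.16 (SE, log2; limma adjusted p = 0.0986), followed by *Cfb* with 0.65 ± 0.35 and *C1qc* with 0.55 ± 0.16 (SE, log2). *C1qb* was called with library weights in the fit (log2 change 0.58, limma adjusted p = 0.0426), and over its 26 alternatives the adjusted p was 0.0426 to 0.444. *C3ar1* and *C1qa* each had an estimate of 0.42, with limma adjusted p of 0.215 and 0.278. *C3* had 0.35 ± 0.20, *Cfp* 0.20 ± 0.16, *C5ar1* 0.19 ± 0.16 and *C4b* 0.17 ± 0.26 (SE, log2). Without OVA KO 1 the estimates for *C1qa*, *C1qb*, *C1qc* and *C3ar1* were 0.32, 0.58, 0.45 and 0.40, and those for the others included 0.20 for *C3*, 0.048 for *Cfp* and -0.048 for *C4b*.

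Whether the responses of the genotypes differed was tested directly. The estimated OVA response was smaller in KO than in WT lungs for 8 of the 9 genes, with *C3* at -0.90 ± 0.28, *C3ar1* at -0.63 ± 0.18 and *Cfp* at -0.57 ± 0.23 (difference of log2 changes, SE). These 3 had an unadjusted p under 0.05, as had 7.02% of all genes, but none of the 9 was called (limma adjusted p = 0.639, 0.639 and 0.663), and over all genes 0.00438% were called. For the C1q chains the differences were -0.29 to -0.31, with SE of 0.20 to 0.23. The call of a rise in WT and none in KO lungs is thus not by itself a tested difference for any of the 9 genes. The WT and KO estimates each rest on their own saline libraries.

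**Figure D2:**
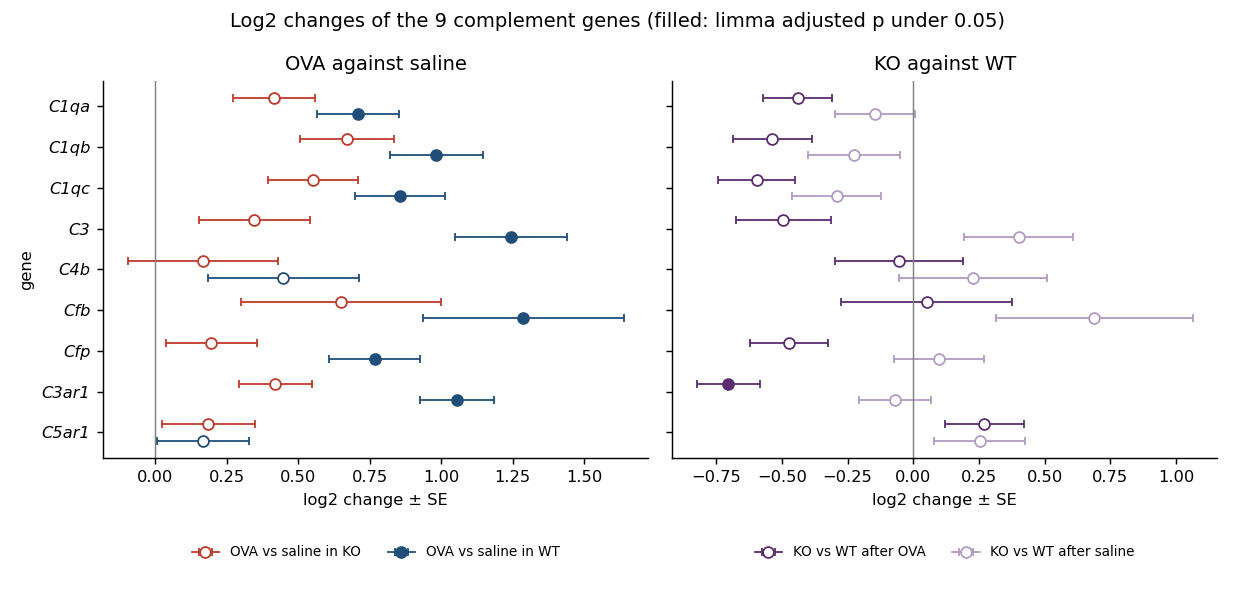
Log2 change with its SE (horizontal axes) of each complement gene for OVA against saline in KO and WT lungs (left) and for KO against WT lungs after OVA and after saline (right); filled points passed a limma adjusted p of 0.05. In WT lungs 7 genes are filled, in KO lungs none, and between genotypes only *C3ar1* after OVA.

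Between genotypes after OVA, the C1q chains, *C3*, *Cfp* and *C3ar1* had lower means in KO lungs, and *C3ar1* alone was called. It averaged 5.99 ± 0.70 in OVA KO and 10.1 ± 1.56 in OVA WT lungs (SD, n = 4 each), and the difference was -0.70 ± 0.12 (SE, log2; limma adjusted p = 0.0289). Thus 1 of 9 genes was called lower, against 0.206% of all genes, and 2 of 9 (*C3ar1* and *C1qc*) had every OVA KO library below every OVA WT library, against 4.04%. The call of *C3ar1* was lost in 9 of 26 alternatives: on leaving out OVA WT 1, 2 or 3, OVA KO 2 or 4, or saline KO 2 or 3, under equal column totals and in a fit of the OVA groups alone. Its log2 change stayed between -0.81 and -0.59, and its limma adjusted p was 0.00803 to 0.243. The estimate of -0.59 was that under equal column totals, where the median of all genes stood at 0.11.

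In this comparison 6 of the 9 genes had an unadjusted p under 0.05, against 17.8% of all genes. Beside *C3ar1* they were *C1qc* at -0.60 ± 0.15, *C1qb* at -0.54 ± 0.15, *C1qa* at -0.44 ± 0.13, *Cfp* at -0.47 ± 0.15 and *C3* at -0.50 ± 0.18 (SE, log2), with limma adjusted p of 0.0866 to 0.182. In each of the 6 every OVA KO library was below the OVA WT mean, which their choice by p in this same comparison favours. The share of all genes with this feature was not counted. Without OVA KO 1 all 6 were called lower, with log2 changes of -0.53 for *C1qa*, -0.62 for *C1qb*, -0.70 for *C1qc*, -0.64 for *C3*, -0.62 for *Cfp* and -0.72 for *C3ar1*, while the share of all genes called lower grew to 2.51%. The count of 1 or 6 thus turned on whether that library was included. It was singled out for lying within the OVA WT range over all genes, and leaving out such a library favours larger genotype differences. The 6 calls are therefore not independent support for a difference. OVA KO 1 had the highest value of the OVA KO libraries for 6 of the 9 genes, and OVA KO 2 the lowest for 6.

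The remaining members did not follow this pattern. *C4b* differed by -0.054 ± 0.24 and *Cfb* by 0.050 ± 0.32 (SE, log2), and each changed sign in 5 alternatives. Without OVA KO 1 they differed by -0.27 and -0.056. *C5ar1* was the gene with the highest estimate, 0.27 ± 0.15 (SE, limma adjusted p = 0.363), and all 4 OVA KO libraries were above the OVA WT mean. Without OVA KO 1 its estimate was 0.26.

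After saline no complement gene differed between genotypes by limma, where 0.0832% of all genes were called in either direction, and none had an unadjusted p under 0.05, against 3.32% of all genes. *C3* at 0.40 ± 0.21, *Cfb* at 0.69 ± 0.37 and *Cfp* at 0.10 ± 0.17 (SE, log2; limma adjusted p = 0.9999 for each) had all 3 saline KO libraries above all 3 saline WT libraries, and 5.81% of all genes showed this. *C3* averaged 561 ± 65.9 in saline KO and 426 ± 63.1 in saline WT lungs (SD, n = 3 each), and *Cfb* 35.1 ± 8.67 and 21.4 ± 3.87. The C1q chains had estimates below 0, from -0.15 for *C1qa* to -0.29 for *C1qc*. *C3ar1* averaged 4.34 ± 0.40 in saline KO and 4.57 ± 0.21 in saline WT lungs (SD, n = 3 each).

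Macrophage genes were measured beside these results. Of a list of 10 macrophage and monocyte genes, 6 were called higher in OVA WT over saline WT lungs by limma (among them *Adgre1*, *Fcgr1*, *Cd68*, *Ms4a7* and *Mrc1*) and 0 lower. Over all genes 4.36% were called higher and 7.45% lower there. *Lyz2*, *Cd14* and *Csf1r*, of the same list, had estimates of -0.30, -0.28 and -0.0007 and did not pass. The mean log2 value over the list was 5.09 to 5.31 in OVA KO, 5.29 to 5.52 in OVA WT, 4.65 to 4.87 in saline KO and 4.72 to 4.90 in saline WT lungs. The summed value, most of it *Lyz2*, was 4385 to 5435 in OVA KO and 2608 to 4054 in OVA WT lungs, against 3137 to 4676 in saline KO and 3808 to 4386 in saline WT lungs. It was thus lowest in an OVA WT library, while the mean log2 value was higher in all OVA WT than in all saline WT libraries. Among markers often used for these cells, *Cd68* averaged 19.4 in OVA KO and 27.4 in OVA WT lungs, against 12.0 in saline KO and 12.9 in saline WT lungs, while *Csf1r* averaged 58.4 to 68.5 in the 4 groups. Of 10 alveolar macrophage genes 5 were called higher in OVA WT lungs, and of 10 interstitial macrophage genes 3, against 4.36% of all genes. Between genotypes after OVA limma called 2 of the 10 interstitial genes lower in OVA KO lungs (*Trem2* and *Ms4a7*), against 0.206% of all genes. *Cd163* of that list had an estimate of 0.54 in the same comparison and -1.03 in OVA WT over saline WT lungs, and neither passed. The part of macrophage number in the complement results was not tested.

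Within each library, ratios were taken to *Cd68*, which itself rose with OVA in WT lungs by 1.06 on the log2 scale. *Csf1r* did not pass there (-0.0007), so the ratios depend on the marker chosen. The *C1qa* to *Cd68* ratio had a median of 1.47 (1.38 to 2.16) in OVA KO and 1.53 (1.34 to 1.67) in OVA WT lungs, against 1.84 (1.84 to 1.96) in saline KO and 1.96 (1.87 to 2.06) in saline WT lungs. It was lower in every OVA WT library than in any saline WT library. The *C3ar1* to *Cd68* ratio had medians of 0.329, 0.363, 0.354 and 0.325 in OVA KO, OVA WT, saline KO and saline WT lungs, and all groups overlapped. The *Cfp* to *Cd68* ratio was 0.927 to 0.992 in OVA KO, against 1.19 to 1.44 in saline KO lungs, and 0.762 to 1.22 in OVA WT, against 0.982 to 1.46 in saline WT lungs. These ratios describe the libraries and were not tested.

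**Figure D3:**
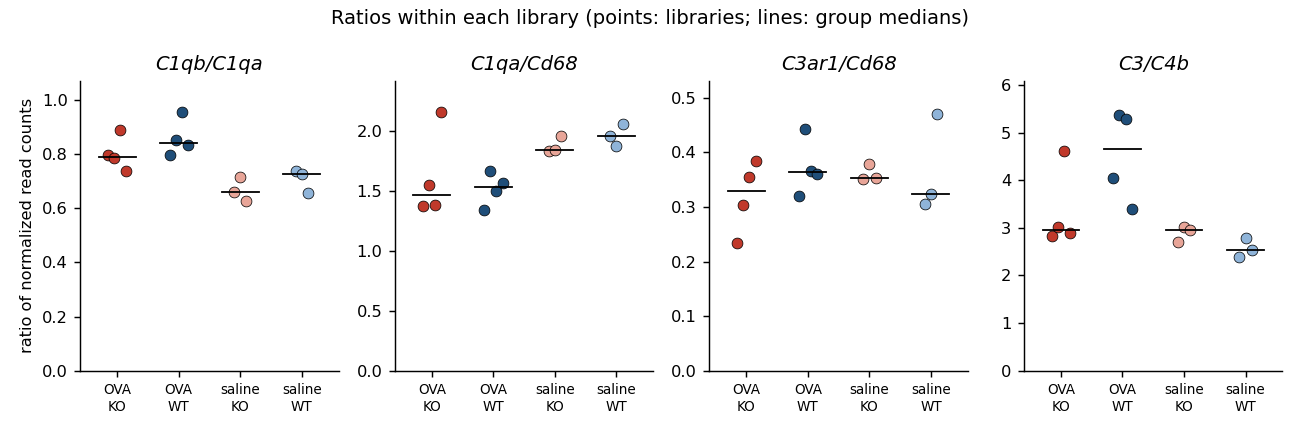
Ratios of normalized read counts within each library (vertical axes, linear and starting at 0) for *C1qb* to *C1qa*, *C1qa* to *Cd68*, *C3ar1* to *Cd68* and *C3* to *C4b*, in OVA KO, OVA WT, saline KO and saline WT lungs; points are libraries and lines group medians. The *C1qb* to *C1qa* ratio lies at 0.738 to 0.955 in OVA and at 0.626 to 0.735 in saline lungs, and the *C3* to *C4b* ratio is highest in OVA WT lungs.

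Markers of other cells were measured beside them. The mean log2 value of 10 neutrophil genes, cells that carry *C5ar1*, was 4.16 to 4.51 in OVA KO, 2.47 to 3.80 in OVA WT, 3.55 to 4.36 in saline KO and 2.64 to 3.46 in saline WT lungs. Between genotypes limma called 0 of 10 after OVA and 0 of 10 after saline. At an unadjusted p under 0.05, 9 of 10 passed after OVA, against 17.8% of all genes. After saline 8 of 10 passed, against 3.32% of all genes. Saline KO 2 had both the highest *C5ar1* value and the highest neutrophil mean of the saline libraries. By contrast, OVA KO 3 had the highest neutrophil mean of all libraries (4.51) but the lowest *C5ar1* value of the OVA KO libraries (13.0). Among 10 mucous cell genes the mean was highest in OVA KO 3 (6.63) and OVA WT 2 (5.86), and OVA KO 3 was the library with the highest *Cfb* value, whereas OVA WT 2 had the lowest *Cfb* value of the OVA WT libraries (44.6). Without these libraries the genotype estimate of *Cfb* after OVA was -0.34 (limma adjusted p = 0.606) in place of 0.050. Leaving out the OVA KO library with the most *Cfb* and the OVA WT library with the least lowers this estimate whatever their mucous means. The change therefore says nothing about mucous cells. Club cell genes had means of 8.88 to 10.1 in OVA KO and 8.41 to 9.09 in OVA WT lungs, against 10.4 to 10.9 in saline KO and 10.5 to 10.9 in saline WT lungs. Liver RNA was near 0: albumin (*Alb*) averaged 0.43 to 0.56 in the 4 groups, where *C3* averaged 426 to 1012. A list of 14 interferon-gamma target genes, none of them a complement gene, had 14 called higher in WT lungs with OVA, against 4.36% of all genes. In KO lungs 1 was called higher, against 0.21% of all genes. Limma called 0 of 14 between genotypes after OVA and 0 of 14 for the difference of responses. At an unadjusted p under 0.05 these comparisons had 13 and 10, against 17.8% and 7.02% of all genes. The list means were 4.76 to 5.69 in OVA KO, 5.49 to 6.18 in OVA WT, 4.36 to 4.50 in saline KO and 4.24 to 4.67 in saline WT lungs. How far these other genes bear on the complement values was not tested.

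Genes outside the 9 with the most similar pattern were ranked by the root mean square difference of centred log2 values over the 14 libraries. For *C1qa* they were *Adgre1* (0.12), *Ccr2* (0.12) and *Lgals1* (0.13), and for *C1qb* *Cd68* (0.15), *Mgl2* (0.17) and *Tfpi2* (0.18). *C1qc* was nearest to *Lgals1* (0.14), *Tfpi2* (0.15) and *P2ry6* (0.16), all 3 farther from it than *C1qb* and *C1qa* were. *Cfp* lay close to *Cyba*, *Apobec1* and *Psme2b* (0.10 each), and *C3ar1* to *Saa1* (0.14), *Nxpe5* (0.15) and *Ptgir* (0.16). The nearest genes to *C3* were *Tfec*, *Mrc1* (0.18 each) and *Cd200r4* (0.20), and those to *C4b* were *C1ra* (0.17), *Ildr2* (0.17) and *Podn* (0.19). *C5ar1* was nearest to *Tjp1*, *Slc40a1* and *Tmem140* (0.12 each). No gene came as close to *Cfb*, whose nearest were *Atp6v0a4* (0.37), *Atp6v0d2* (0.41) and *Pigr* (0.41).

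The rest of the complement system was described from lists of 49 further genes, of which 41 were tested. In OVA WT over saline WT lungs 4 were called higher and 5 lower, against 4.36% and 7.45% of all genes tested, with a median log2 change of 0.00, against 0.86 for the 9 genes above. In the other comparisons limma called 0 of 41. An unadjusted p under 0.05 was reached by 7 of them for OVA in KO lungs (11.3% of all genes), by 8 for KO against WT lungs after OVA (17.8% of all genes), by 2 for KO against WT lungs after saline (3.32% of all genes) and by 3 for the difference of responses (7.02% of all genes). These unadjusted counts lie near the shares of all genes, while the 4 and 5 called for OVA in WT lungs are somewhat above theirs.

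Among receptors, the integrin genes of complement receptors 3 and 4 rose in WT lungs. *Itgam* averaged 33.1 ± 9.08 in OVA WT and 17.2 ± 2.38 in saline WT lungs, *Itgax* 80.8 ± 15.3 and 35.8 ± 3.41, and their shared partner *Itgb2* 81.5 ± 14.9 and 44.5 ± 7.51 (SD, n = 4 and 3), with log2 changes of 0.89, 1.15 and 0.86 (limma adjusted p = 0.00988, 0.00122 and 0.00486). *C5ar2*, the other receptor for C5a, averaged 3.70 ± 0.10 in OVA WT and 3.87 ± 0.44 in saline WT lungs, a log2 change of -0.05. *Hc*, which encodes C5, averaged 670 ± 122 in OVA WT and 503 ± 46.9 in saline WT lungs and did not pass (log2 change 0.40, limma adjusted p = 0.0933), nor did it in KO lungs, with 819 ± 53.2 after OVA and 632 ± 103 after saline.

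Of the regulators, the membrane inhibitors *Cd55* and *Cd55b* fell in WT lungs, *Cd55* to 64.3 ± 15.4 in OVA WT, against 105.8 ± 11.6 in saline WT lungs (SD, n = 4 and 3; log2 change -0.74, limma adjusted p = 0.0117). *Cd55b* was near the floor, at 0.39 after OVA and 1.03 after saline. *Susd4* (-0.44) and *Cpn2* (-0.61) also fell, and *C4bp* rose by 0.63 on the log2 scale, though *Cpn2* and *C4bp* had means under 0.5 in both groups. *Cfd*, factor D of the alternative pathway, fell to 2.58 ± 3.14 in OVA WT, against 46.9 ± 18.0 in saline WT lungs (log2 change -4.41, limma adjusted p = 0.0183). Factor D is made in quantity by fat cells, and 4 of 8 other fat genes were called lower as well, against 7.45% of all genes. Of these *Adipoq* and *Car3* passed narrowly (limma adjusted p = 0.04705 and 0.04985). The mean log2 value of the fat genes was 0.73 to 1.83 in OVA WT and 2.73 to 3.84 in saline WT lungs. The part of adhering fat in the *Cfd* value was not tested. None of 12 classical and lectin pathway genes passed, *C4a* among them at 1.82 ± 0.30 in OVA WT and 1.47 ± 0.41 in saline WT lungs, and none of 4 terminal genes.

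**Figure D4:**
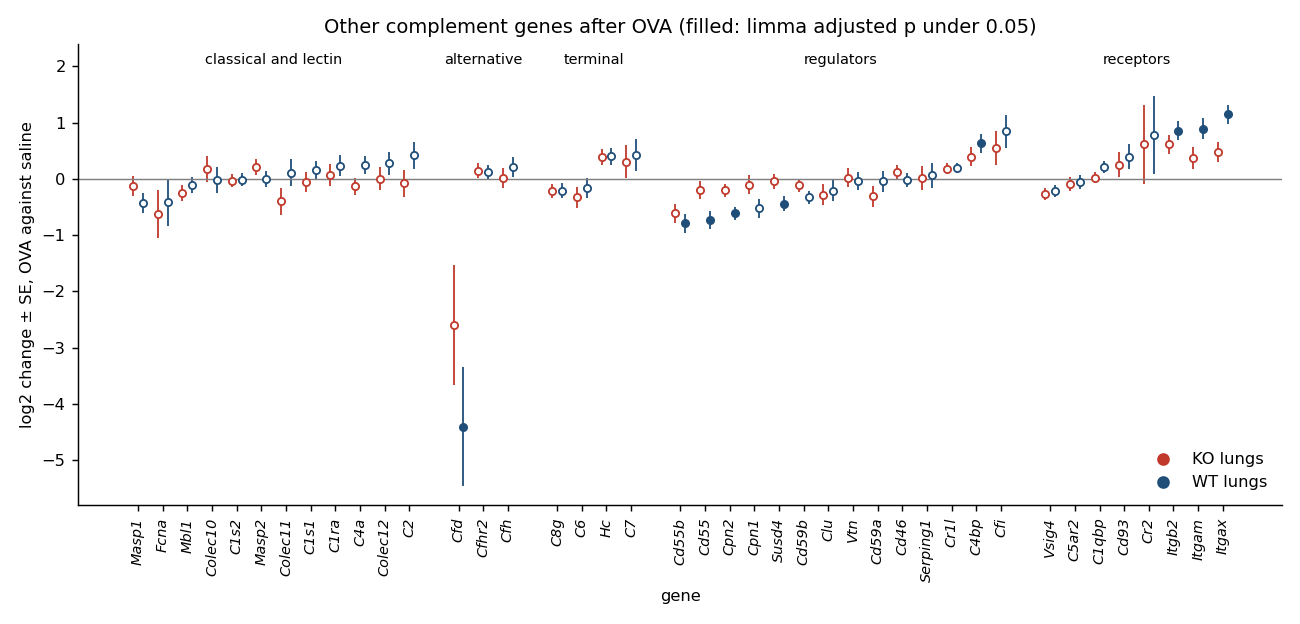
Log2 change with its SE (vertical axis) for OVA against saline in KO and WT lungs of 41 further complement genes, grouped by role along the horizontal axis and ordered by the WT change; filled points passed a limma adjusted p of 0.05. Only WT points are filled, 3 of them receptors, 5 regulators and 1, *Cfd* at -4.41, in the alternative pathway.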

How the data were processed

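Lungs of 14 mice were sequenced as polyadenylated RNA (KAPA mRNA HyperPrep kit, Illumina NovaSeq). STAR, Partek and the mm10 genome are the tools and build named in the authors' processing notes. The deposited signal is a table of normalized read counts, 1 value per gene and library, and the normalization method is not given in the sources used here. Values behave as estimated reads plus an offset of 1 read, times a factor per library: 71.41% to 74.3% of the low values were whole multiples of the lowest one, to a tolerance of 0.1. They are not whole, so they were not tested as counts, and column totals range from 907121 to 1148437.

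Values were analysed as log2(value + 0.5016), the pseudocount being 0.5 ppm of the mean column total, so changes of low genes are understated. Genes with at least 0.2 ppm in at least 3 libraries were kept (22828). A linear model of the 4 groups was fitted in limma 3.58.1 under R 4.3.3 (trend, robust), with 5 two-sided contrasts and Benjamini-Hochberg adjustment over all genes within each, at a threshold of 0.05. The procedure was tested on simulated data. The study's own Gene Specific Analysis was not run. No batch is given in the labels.

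The members, gene lists and alternatives were chosen with earlier results of these data known. Genes named are the 9 members, further complement genes past the threshold (at most 6 per list) with *C4a*, *C5ar2* and *Hc*, at most 4 of each cell type list, the 3 genes most alike each member, and *Mcemp1*. The macrophage genes, *Gm20547*, *Csf1r*, *Trem2*, *Cd163* and *Alb* were named after their values were seen, and 1 gene of the marker lists is not reported here. Positions are those of GENCODE M21, found by identifier, since the table's own coordinates are of another build and were not used. Promoters are from RefSeq. Alternatives covered scaling, pseudocount, offset, filter, variance model, library weights, groups fitted, replicate number as a block, and the omission of each library and of OVA KO 3 and OVA WT 2 together.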

Additional observations from a re-analysis of the deposited data

Results flagged for a closer look

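*C1qc* in OVA WT 4 was 27.0 normalized reads, far below the 34.7 to 35.7 of the other OVA WT libraries, a gap that takes up most of the group's range. It was 1 such value in the 18 groups of 4 examined (9 genes in OVA KO and OVA WT lungs), and chance gives about 1 in 20.

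For *C3* and for *Cfp*, every OVA KO library was below the OVA WT mean while every saline KO library was above the saline WT mean. The genotype estimates thus had opposite signs under the 2 treatments, but none of them was called by limma. After saline they were 0.40 ± 0.21 for *C3* and only 0.10 ± 0.17 for *Cfp*, and after OVA -0.50 ± 0.18 and -0.47 ± 0.15 (SE, log2). The difference of responses (KO minus WT) was -0.90 for *C3* and -0.57 for *Cfp* on the log2 scale, and neither passed the test of that difference (limma adjusted p = 0.639 and 0.663).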

How the results depend on the processing

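Each of the 5 counts of complement genes called was recomputed under the alternatives. The count for OVA in WT lungs was 7 in every setting except the omission of single libraries, where it was 6 to 7. The share of all genes called was 5.11% to 13.4% with 1 library left out and 8.44% to 21.1% in the other settings. OVA in KO lungs gave 0 throughout, except 1 with library weights, and 0.0484% to 0.936% of all genes were called with 1 library left out. KO against WT lungs after OVA gave 1, but 0 with equal column totals, 0 in a fit of the groups compared alone, and 0 to 6 when 1 library was left out. The share of all genes called was 0.39% in the main analysis, 0.578% with equal totals and 0.127% to 4.9% with 1 library left out. The other counts stayed at 0 (limma; at an unadjusted p under 0.05, 0 genes between genotypes after saline and 3 for the difference of responses in the main analysis).

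Signs changed only in estimates that were never called. For KO against WT lungs after OVA, *C4b* became 0.0705 with equal totals and ranged from -0.27 to 0.11 when 1 library was left out. *Cfb* became -0.41 with library weights and ranged from -0.26 to 0.42 when 1 library was left out. It became -0.34 without OVA KO 3 and OVA WT 2, the libraries with the highest mucous cell means. These also held the highest *Cfb* value of OVA KO and the lowest of OVA WT lungs, so their omission lowers the estimate by itself. The difference of responses of *C5ar1* became -0.0451 without those libraries and ranged from -0.15 to 0.20 when 1 library was left out, and its OVA change in WT lungs became -0.0488 with equal totals. When 1 library was left out, *C4b* with OVA in KO lungs ranged from -0.0482 to 0.33, and *C3ar1* between genotypes after saline from -0.11 to 0.001.

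Equal column totals moved the median log2 change of all genes to -0.17, -0.08 and 0.11 for OVA in WT, OVA in KO and KO against WT after OVA, and 467 genes were then called higher and 4340 lower for OVA in WT lungs, against 995 and 1700. Same-numbered libraries of different groups had a median correlation of deviations of 0.03, with 5 of 19 above 0.1. Differently numbered libraries had a median of -0.005, with 15 of 54 above 0.1. Replicate numbers thus gave no sign of pairing, although such correlations cannot show that the samples were unpaired. The replicate block gave counts of 7, 0, 1, 0 and 0 in the 5 comparisons and changed no call. The normalization behind the deposited values is unknown, and *C3ar1* has the fewest reads. Groups of 3 or 4 lungs limit every comparison.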
